A study of Mus musculus with 12 samples.

Results

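Gene expression in the aorta 1 week after minoxidil was withdrawn was compared with gene expression at the end of treatment. Minoxidil lowers blood pressure by opening ATP-sensitive potassium channels in smooth muscle. All mice were C57BL/6J and Eln+/-, so every library, controls included, came from an animal with a single working copy of the elastin gene. The on-drug group (4 libraries) drank minoxidil for 2 weeks, from 2.5 to 3 months of age. The off-drug group (4 libraries) drank it over the same ages and then drug-free water for 1 week. By that schedule off-drug mice were harvested 1 week later in life, yet the age label reads 3 months throughout, and age and withdrawal cannot be told apart. These 8 libraries were chosen by their labels from the 12 of the series. The other 4 came from control mice on plain water and stand beside the results as the untreated level. Each library held RNA from the descending thoracic aorta, taken down to the diaphragm. The labels do not state the dose, the sex, the cage or the hour of collection.

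The wall of this vessel is built of sheets of elastic fibre alternating with smooth muscle cells, inside a collagen-rich adventitia. Elastic fibres consist of elastin laid on fibrillin microfibrils and cross-linked by lysyl oxidases. Smooth muscle cells and fibroblasts secrete these proteins through the endoplasmic reticulum, where chaperones fold them. Elastin is made mostly in early life, and a low elastin dose leaves a narrow, stiff aorta. Whole tissue was sequenced, so fewer cells of a type and less RNA per cell cannot be told apart in any of the results. The label of aorta fitted its markers: smooth muscle actin (Acta2) had 8181 to 9861 CPM on drug and 7483 to 8847 CPM off drug. CPM (counts scaled to a common library size with TMM factors) measure a gene's level.

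The 8 libraries held 41524501 to 109423243 counts, and mitochondrial genes took 10 to 12.4% of them. Spearman correlations between libraries of a group were 0.987 to 0.988 on drug and 0.985 to 0.989 off drug. The first principal component of the 8 libraries (47% of the variance) separated the 2 groups completely. The second (14.6%) separated off-drug replicates 1 and 2 from off-drug replicates 3 and 4. These pairs also differed in fat, since 20 white adipocyte genes summed to 2089 and 1898 CPM in off-drug replicates 1 and 2 and to 4783 and 4377 CPM in replicates 3 and 4. The on-drug sums, 2749 to 3852 CPM, lay between the pairs. With the fat score as a covariate 1319 genes were called higher and 1717 lower. Hence results were also computed without either pair. The labels give 4 mice per group and no batch, and RNA was extracted from all tissues together.

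More genes were called lower than higher off drug. Of 24660 genes tested, 3047 (12.4%) differed between the groups at an adjusted p below 0.05 in edgeR's quasi-likelihood test. Off drug, 1341 genes were higher (5.44%) and 1706 lower (6.92%). At least 2-fold differences among the calls numbered 172 higher (0.697%) and 288 lower (1.17%). The median log2 fold change over all tested genes was -0.00107, and 12291 genes had a positive one. All off-drug libraries lay above all on-drug libraries for 2327 genes and below them for 2310. The excess of lower genes was thus seen in the calls and not in these counts. The percentages called are the background against which each gene list is read below. Throughout, ± after a CPM is the SD over 4 libraries, ± after a log2 fold change is its SE, and a gene is said to rise or fall only where its adjusted p in this test was below 0.05. Without off-drug replicates 3 and 4 there were 656 higher and 894 lower calls, and without replicates 1 and 2 there were 630 and 972.

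**Figure D1:**
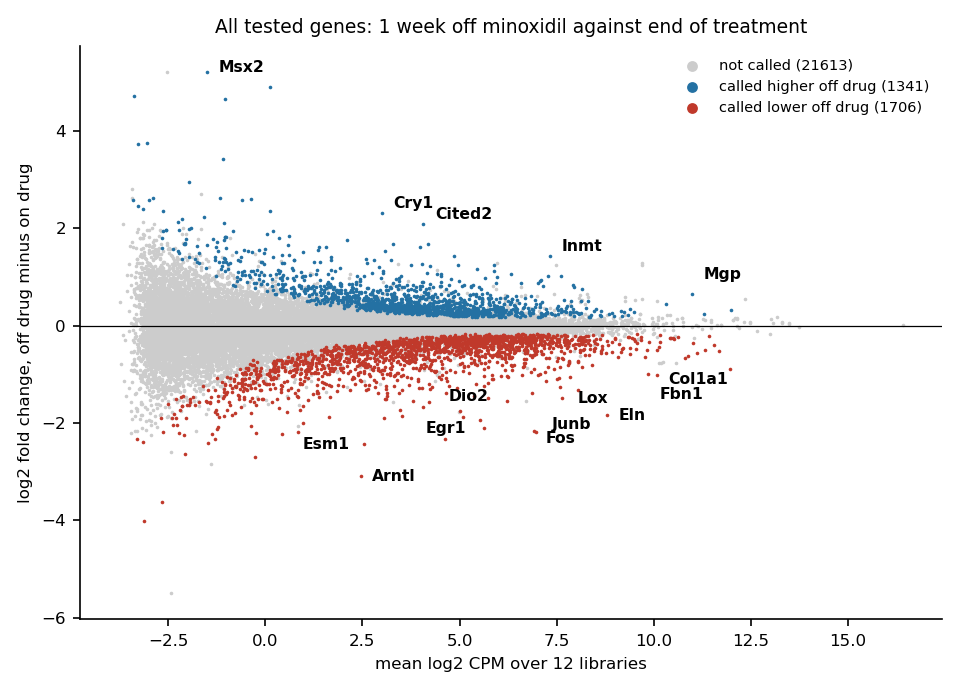
Log2 fold change (off drug minus on drug, y axis) against mean log2 CPM over 12 libraries (x axis) for all 24660 tested genes, with the 1341 genes called higher in blue and the 1706 called lower in red. Eln, Lox, Fbn1 and Col1a1 lie among the lower genes at high expression, Cry1 and Cited2 among the higher ones.

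Of 26 elastic fibre genes 14 fell, and elastin itself had the largest fall of them. Eln (on chromosome 5, 134702593 to 134747323, minus strand of build GRCm38) encodes the elastic protein of which these mice have a single working copy. It was measured at 601, 1091, 965 and 699.6 CPM in on-drug replicates 1 to 4 and at 241, 268, 219.8 and 209 CPM in off-drug replicates 1 to 4. Every off-drug library lay below every on-drug library and also below all 4 controls, which had 621, 506, 369.8 and 425 CPM. The log2 fold change was -1.84 ± 0.22 (adjusted p = 0.000431). It ranged from -1.97 to -1.68 over 25 other settings, with adjusted p up to 0.0165.

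Lox, whose product oxidises lysines so that elastin and collagen become cross-linked, had the smallest adjusted p of the list. Its on-drug values were 272, 337, 275 and 265 CPM and its off-drug values 92.3, 113, 94.8 and 108 CPM, against 271 ± 10.8 CPM in controls. On-drug replicate 2 stood above the other on-drug libraries, yet the groups were far apart (log2 fold change -1.49 ± 0.08, adjusted p = 6.52e-09). Fbn1, which encodes the microfibril protein fibrillin-1, had 1258, 1278, 1367 and 1186 CPM on drug and 636, 706, 617 and 587 CPM off drug. Here too no off-drug library reached the on-drug or the control range (933 to 1014 CPM), and the log2 fold change was -1.0 ± 0.07 (adjusted p = 3.42e-08). The related cross-linking enzymes Loxl2 and Loxl3 fell by 1.05 (SE 0.10) and 0.58 (SE 0.06) on the log2 scale, and the microfibril-associated protein Mfap5 fell by 0.72 (SE 0.08).

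Of the 26 elastic fibre genes tested 14 were called lower and 1 higher (median log2 fold change -0.314). The single riser of the list, Mfap1a, was looked up after its values were seen, and whether its product is part of the elastic fibre was not examined. It had 64 ± 1.27 CPM on drug and 73.6 ± 2.09 CPM off drug (0.20 ± 0.06 on the log2 scale, adjusted p = 0.0382), and shares reads with a near-identical copy. Its call ended without off-drug replicates 1 (0.0995), 2 (0.074) or 3 (0.0785) or on-drug replicates 2 (0.0683), 3 (0.0812) or 4 (0.0967). The count of 14 was 8 without off-drug replicates 3 and 4 together.

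Among 29 fibrillar and associated collagens 14 fell. Col3a1 and Col1a1 encode chains of the main fibrillar collagens III and I. Col1a1 (chromosome 11, 94936224 to 94953042, plus strand) had 1397, 1672, 1937 and 1694 CPM on drug and 861, 907, 809.7 and 759 CPM off drug, a log2 fold change of -1.01 ± 0.11 (adjusted p = 3.45e-05). The groups did not overlap, and off-drug values overlapped the control range of 763 to 1127 CPM. Col3a1 (chromosome 1, 45311538 to 45349706, plus strand) had 4761, 5180.4, 6233 and 4766 CPM on drug and 2866, 3269.8, 2828 and 2407 CPM off drug, with 4422 ± 465 CPM in controls. It fell by 0.88 (SE 0.10, adjusted p = 3.65e-05), and all off-drug libraries were below all controls. Col5a3, a minor chain of the fibril-nucleating collagen V, had the largest fall of the list at -1.89 ± 0.18, from 14.5 ± 3.91 to 3.88 ± 0.621 CPM. Col12a1, a collagen on the fibril surface, fell by 0.91 (SE 0.10) and Col5a2 by 0.59 (SE 0.07). In all, 14 of 29 fibrillar and associated collagens were lower and 2 were higher, and the median was -0.403.

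The 2 that rose were Col27a1 and Col19a1, named after their values were seen. Col27a1, a fibrillar collagen best known from cartilage, had 13.1, 12.3, 12.8 and 11.6 CPM on drug and 18.2, 21.9, 21 and 23.1 CPM off drug, with no overlap (0.76 ± 0.10, adjusted p = 4.85e-05). Col19a1, a fibril-associated collagen, went from 9.9 ± 0.358 to 12.8 ± 0.787 CPM. Its call ended without off-drug replicates 3 and 4 together (adjusted p = 0.0513).

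Of 26 enzymes and chaperones that make collagen 13 fell and 0 rose. Serpinh1, the collagen-specific chaperone HSP47, had 887, 1099.6, 1032 and 894 CPM on drug and 748, 715, 667 and 648 CPM off drug (-0.49 ± 0.08, adjusted p = 0.000287). Its off-drug values were also below the controls, at 1130.5 ± 86.4 CPM. P4ha2, a prolyl hydroxylase subunit, fell by 0.63 (SE 0.10), and the procollagen proteinases Adamts2 and Bmp1 fell by 0.60 (SE 0.08) and 0.36 (SE 0.06). Sparc, which binds collagen, fell from 2487 ± 291 to 1610.2 ± 193 CPM, next to 1667 ± 187 CPM in controls. The median of the list was -0.25. The count of 13 was 8 without off-drug replicate 3 and 6 without off-drug replicates 3 and 4. No member was called higher by DESeq2 or limma-voom, and none was higher at an unadjusted p below 0.05.

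In the basement membrane, the sheet around smooth muscle and under endothelium, 10 of 21 genes were lower and 1 higher (median -0.224). Nid1, which links laminin to collagen IV, had 189, 190.1, 213 and 194 CPM on drug and 118, 129, 127 and 119 CPM off drug. Its groups did not overlap (-0.67 ± 0.06, adjusted p = 4.27e-07), and the off-drug libraries were below all controls (137 to 144 CPM). The collagen IV chains Col4a1 and Col4a3 fell by 0.65 (SE 0.08) and 0.55 (SE 0.07), and perlecan (Hspg2) by 0.45 (SE 0.09). The riser was the laminin gamma chain gene Lamc3. It had 57.2, 68.3, 73.8 and 64.4 CPM on drug and 133, 107, 117 and 128 CPM off drug, against 129.7, 118, 97.4 and 96.8 CPM in controls. All off-drug values were above all on-drug values and overlapped the controls (0.88 ± 0.10, adjusted p = 3.97e-05).

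Adhesive and matricellular glycoproteins split, 14 of 34 lower and 5 higher (median -0.206). Fibronectin (Fn1), which cells bind through integrins, had 3622, 3211, 3809 and 3416 CPM on drug and 2486, 2712, 2486 and 2251 CPM off drug (-0.50 ± 0.07, adjusted p = 7.75e-05). The off-drug values stayed above all 4 controls, which had 1813 to 2051 CPM. Tnxb, encoding tenascin-X, showed the same order, 863 ± 12.4 CPM on drug, 632 ± 39.7 CPM off drug and 546 ± 18.4 CPM in controls, with a fall of 0.45 (SE 0.06) on the log2 scale. Tenascin-C (Tnc) instead went below the controls. It had 457 ± 58.1 CPM on drug, 259 ± 21.8 CPM off drug and 337 ± 27.6 CPM in controls (-0.82 ± 0.09, adjusted p = 8.06e-06). Fndc1 fell by 0.76 (SE 0.08). Periostin (Postn) fell by 0.39 (SE 0.08), a call that ended without off-drug replicates 3 and 4 (adjusted p = 0.072), where 7 members of the list were called lower.

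Against this trend, matrix Gla protein (Mgp), a secreted inhibitor of calcification, rose. Mgp had 1567, 1729.7, 1741 and 1742 CPM on drug and 2598, 2625, 2897 and 2596 CPM off drug, and 1764 to 1959 CPM in controls. Every off-drug library was above every other library (0.66 ± 0.06, adjusted p = 1.14e-06). Within the groups on-drug replicate 1 was low and off-drug replicate 3 high. Among proteoglycans 3 of 28 rose and 6 fell (median -0.051). The cartilage proteoglycan aggrecan (Acan) had 25.7, 33.2, 42.8 and 32 CPM on drug and 53, 57.1, 63.3 and 60.3 CPM off drug, and the protein that ties it to hyaluronan, Hapln1, had 6.73, 5.86, 5 and 6.16 and 10.4, 14.7, 12 and 15 CPM. Both were higher off drug without overlap, by 0.81 ± 0.12 (adjusted p = 0.000392) and 1.13 ± 0.17 (adjusted p = 0.00028) on the log2 scale. The membrane proteoglycan Sdc4 fell by 0.72 (SE 0.07), from 273 ± 26.5 to 166 ± 6.65 CPM, and Sdc1 had -0.28 ± 0.07 (adjusted p = 0.00834, 0.139 without off-drug replicates 3 and 4). Decorin (Dcn), a small proteoglycan on collagen fibrils, had 1664 ± 97.5 CPM on drug and 1759 ± 81.9 CPM off drug, which overlapped (adjusted p = 0.585). The count of 6 lower proteoglycan genes was 3 without off-drug replicate 3, without off-drug replicate 4 or without on-drug replicate 3, and 1 without off-drug replicates 3 and 4 together.

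Proteases that cut the matrix and their inhibitors were lower in 13 of 35 cases and higher in 2 (median -0.193). Adamts12 and Adamts5 are secreted metalloproteases, and Adamts5 cleaves aggrecan and versican. Adamts12 had 17.8, 15.9, 20.2 and 13.7 CPM on drug and 6.01, 6.75, 7.88 and 5.3 CPM off drug, and fell by 1.38 (SE 0.16, adjusted p = 3.99e-05). Adamts5 fell by 0.54 (SE 0.07) and the serine protease Htra3 by 0.52 (SE 0.08). The metalloproteinase inhibitor Timp3 had 1132 ± 66.9 CPM on drug and 1156 ± 26.4 CPM off drug, with overlapping groups (adjusted p = 0.807). The count of 13 was 3 without off-drug replicates 3 and 4, and 6 without replicates 1 and 2.

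Integrins anchor cells to these proteins. Itga5, the alpha subunit of the fibronectin receptor, had 184, 234, 271 and 218 CPM on drug and 117, 116, 117 and 118 CPM off drug. The off-drug values were tightly grouped below all on-drug values and within the control range of 107 to 139.9 CPM (-0.95 ± 0.10, adjusted p = 7.97e-06). Itgb8, a beta subunit that activates latent TGF-beta, moved oppositely. Its 11.1, 11.9, 8.63 and 12 CPM on drug compared with 21.7, 23.8, 20 and 27.4 CPM off drug and 21.6, 25.9, 22.9 and 19.3 CPM in controls, so that off-drug and control values overlapped and on-drug values stood apart (1.09 ± 0.12, adjusted p = 9.8e-06). The linkers vinculin (Vcl) and kindlin-2 (Fermt2) fell by 0.47 (SE 0.06) and 0.40 (SE 0.06). Of 29 integrin and focal adhesion genes 12 were lower and 2 higher (median -0.158). The 8 matrix lists together held 228 tested genes, of which 96 were lower and 16 higher, and their median log2 fold change was -0.215.

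**Figure D2:**
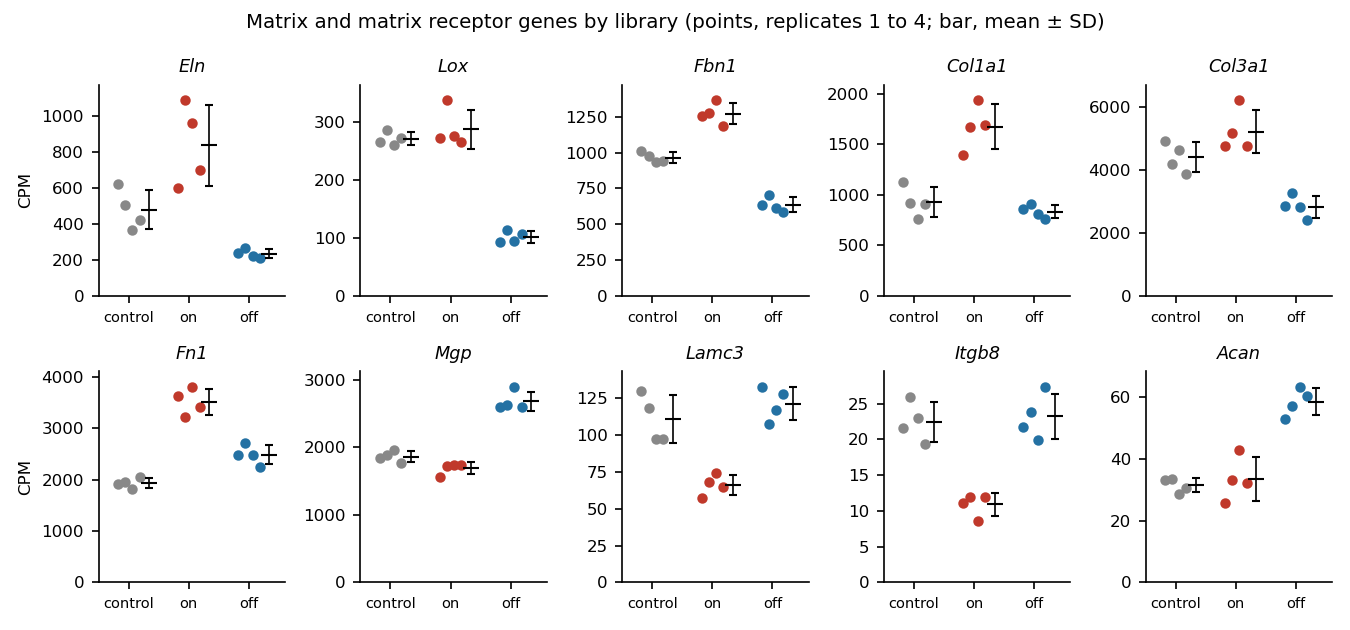
CPM (y axis, from 0) of 10 matrix and matrix receptor genes in each of 12 libraries, with points in the order of replicates 1 to 4 and bars for the mean ± SD of each group. Off-drug points of Eln, Lox, Fbn1 and Col3a1 lie below all other points, those of Fn1 lie between on-drug and control points, and those of Mgp lie above all other points.

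Chaperones of the endoplasmic reticulum, which fold secreted proteins, were mostly called lower. Of 23 tested 15 were lower and 1 higher, and the median log2 fold change was -0.308. Calreticulin (Calr), a lectin chaperone, had 617, 686, 625 and 561 CPM on drug and 441, 445, 417 and 398 CPM off drug. Off-drug values were below all on-drug and all control libraries (664 to 718 CPM), and the log2 fold change was -0.55 ± 0.06 (adjusted p = 1.49e-05). The disulfide isomerase Pdia6 had 132, 148, 139 and 113 CPM on drug and 89, 89.6, 80.9 and 79.1 CPM off drug (-0.65 ± 0.07, adjusted p = 1.2e-05). Hspa5 encodes BiP, the main luminal HSP70. It had 419, 482, 443 and 342 CPM on drug and 306, 317, 271 and 276 CPM off drug, which did not overlap, and 531 ± 72.8 CPM in controls (-0.53 ± 0.11, adjusted p = 0.00361). The Hspa5 call ended without off-drug replicates 3 and 4 (adjusted p = 0.0839). Hsp90b1 and Hyou1 fell by 0.48 (SE 0.06) and 0.42 (SE 0.08).

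The member that rose, Sil1, a nucleotide exchange factor for BiP, was named after its values were seen, at 45.9 ± 0.97 CPM on drug and 52.7 ± 3.28 CPM off drug (adjusted p = 0.0398). Its call ended in 13 of 25 other settings, among them those without off-drug replicate 1 (0.133), 2 (0.0609) or 3 (0.0828) or on-drug replicate 1 (0.0683), 2 (0.0605), 3 (0.0788) or 4 (0.0903). The count of 15 lower chaperones was 9 without off-drug replicate 3, 9 without on-drug replicate 2 and 5 without off-drug replicates 3 and 4.

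Many of these chaperone genes carry an ER stress element, the promoter site through which unfolded protein responses are known to act. It was searched as CCAAT, 9 bases of any kind and CCACG, on both strands, from 250 bases before to 50 bases after each RefSeq gene start (GRCm38.p6). The element was found in 7 of the 18 chaperone genes with a promoter in that table, and in 21 of 13230 tested genes (0.159%). All 7 (Hspa5, Hsp90b1, Calr, Canx, Pdia6, Dnajc3 and Creld2) were among the 14 of those 18 that were lower off drug, and none of the 4 that were not called held it. With only 4 uncalled genes this split was not tested, and the riser Sil1 was not among the 18. Calls of genes outside the list that hold the element were not examined. A match of letters describes the sequence and does not show that a factor is bound. The 3 promoters below are those of the chaperones described above, with the element in capitals.
Hspa5, chr2:34771840-34772139, plus strand: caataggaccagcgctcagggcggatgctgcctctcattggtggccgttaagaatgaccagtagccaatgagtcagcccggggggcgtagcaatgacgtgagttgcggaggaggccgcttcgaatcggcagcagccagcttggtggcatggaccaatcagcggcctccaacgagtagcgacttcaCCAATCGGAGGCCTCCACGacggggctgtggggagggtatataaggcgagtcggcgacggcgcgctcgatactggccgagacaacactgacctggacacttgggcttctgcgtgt
Calr, chr8:84846882-84847181, minus strand: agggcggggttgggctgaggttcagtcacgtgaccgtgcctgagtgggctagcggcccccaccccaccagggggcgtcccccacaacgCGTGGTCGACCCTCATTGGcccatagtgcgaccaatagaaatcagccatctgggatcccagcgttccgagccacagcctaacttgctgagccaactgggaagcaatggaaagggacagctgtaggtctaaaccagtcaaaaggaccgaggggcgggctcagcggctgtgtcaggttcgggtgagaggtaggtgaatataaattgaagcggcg
Pdia6, chr12:17266339-17266638, plus strand: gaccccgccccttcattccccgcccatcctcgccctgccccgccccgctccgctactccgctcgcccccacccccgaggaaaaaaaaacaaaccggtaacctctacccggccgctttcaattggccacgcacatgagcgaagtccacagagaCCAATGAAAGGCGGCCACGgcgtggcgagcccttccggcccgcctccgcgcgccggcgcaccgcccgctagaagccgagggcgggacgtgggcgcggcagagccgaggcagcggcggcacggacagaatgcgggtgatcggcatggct
The element starts 65 bases before the gene start in Hspa5 and 98 bases before it in Pdia6. In Calr it lies on the opposite strand, with its leftmost base 162 bases before the start.

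Further along the secretory pathway (translocation, vesicle coats and cargo receptors) 11 of 45 genes were lower and 0 higher, with a median of -0.134. DESeq2 called 0 of them higher and limma-voom 0, and 0 were higher at an unadjusted p below 0.05, where 26 were lower. Kdelr3, which returns chaperones to the endoplasmic reticulum, had 68.2, 68.4, 71.9 and 68.6 CPM on drug and 51.9, 55.8, 53.9 and 48.2 CPM off drug (-0.40 ± 0.06, adjusted p = 0.000159). The cargo receptor Lman1 fell by 0.36 (SE 0.06) and the oligosaccharyltransferase subunit Ostc by 0.32 (SE 0.06). The count of 11 rested on single libraries, with 4 without off-drug replicate 3, off-drug replicate 4 or on-drug replicate 3. It was 6 when on-drug replicate 2 was left out. It was 7 without composition factors, 17 in limma-voom, 3 without off-drug replicates 3 and 4 and 7 without replicates 1 and 2.

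Chaperones of the cytosol and mitochondria had a single call. Of 25 heat-shock genes 1 was lower and 0 higher, and their median was 0.094. At an unadjusted p below 0.05, 9 were higher and 1 lower, and DESeq2 called 5 higher and limma-voom 2. The lower one, Hspa4, an HSP110-type chaperone named after its values were seen, went from 205 ± 6.36 to 167 ± 3.4 CPM (adjusted p = 0.00153, and 0.0503 without off-drug replicates 3 and 4). Hspa8, the constitutive cytosolic HSP70, had 1701, 2238, 1839.6 and 1909 CPM on drug and 1650.3, 1719, 1426 and 1624 CPM off drug, which overlapped (adjusted p = 0.343). Both groups were below the control mean of 3079 ± 769 CPM.

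**Figure D3:**
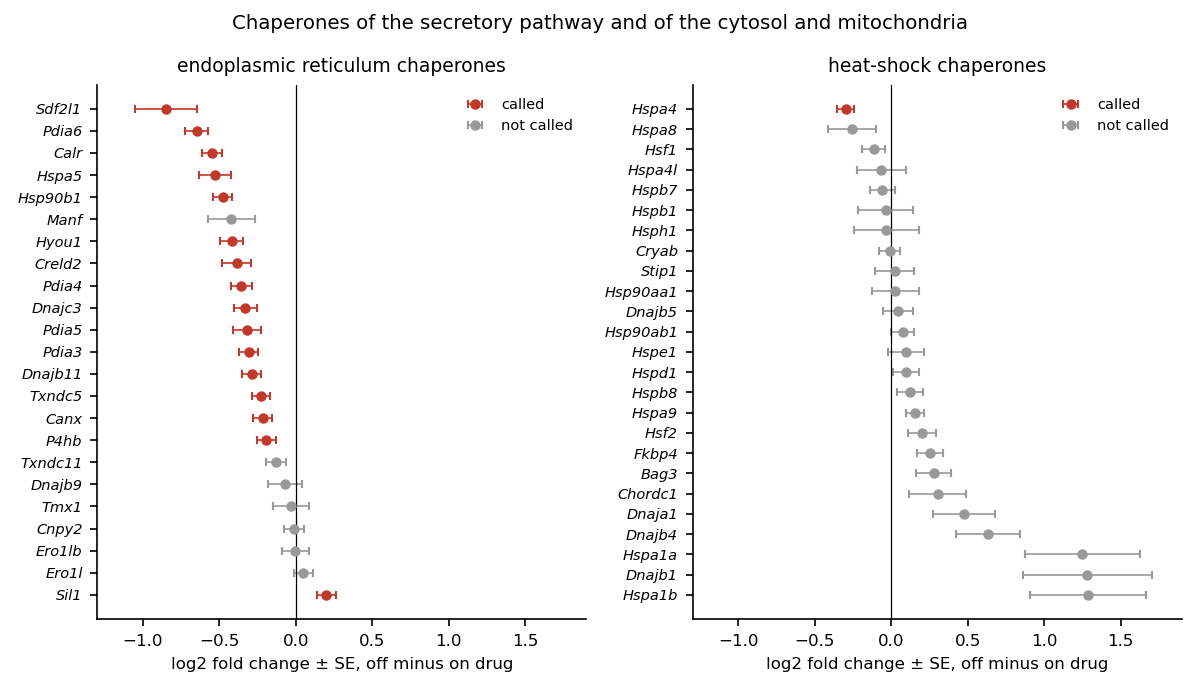
Log2 fold change ± SE (x axis, off drug minus on drug) of the 23 endoplasmic reticulum chaperones (left) and the 25 heat-shock chaperones (right) tested, with called genes in red and others in grey. On the left 15 genes were called to the left of 0 and Sil1 to the right, and on the right only Hspa4 was called.

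In the contractile list of smooth muscle 9 of 32 genes fell and 3 rose, with a median of -0.031. The list also holds genes that are not contractile proteins, such as Aoc3 and Foxs1 below. The main actin and myosin did not pass the test. Acta2 had 8181, 9069.9, 9861 and 8658 CPM on drug and 8847, 7592, 7928 and 7483 CPM off drug, and the groups overlapped (-0.17 ± 0.08, adjusted p = 0.173). Smooth muscle myosin (Myh11) had 4768, 5096, 5283 and 5286 CPM on drug and 5276, 4779.7, 4856 and 4942 CPM off drug (-0.04 ± 0.07, adjusted p = 0.771), also with overlap. Tpm4, a cytoskeletal tropomyosin, fell by 0.50 (SE 0.07) and the amine oxidase Aoc3 by 0.41 (SE 0.06). Foxs1, a forkhead factor of perivascular cells, had 19, 36.2, 29.8 and 18.4 CPM on drug and 8.35, 7.71, 10.1 and 8.59 CPM off drug, without overlap (-1.56 ± 0.21, adjusted p = 0.000769). Without off-drug replicates 3 and 4 the counts were 3 lower and 0 higher, and without replicates 1 and 2 they were 5 and 1.

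Minoxidil acts on the vascular ATP-sensitive potassium channel, whose pore is encoded by Kcnj8 and whose sulfonylurea receptor by Abcc9. Kcnj8 had 41.9, 43.7, 48.5 and 45 CPM on drug and 67.5, 62.6, 79.4 and 65.7 CPM off drug. Every off-drug library was above every on-drug library, and controls lay between at 49.1 to 63.3 CPM with some overlap of the off-drug range (0.62 ± 0.08, adjusted p = 5.87e-05). Abcc9 had 496, 502, 456 and 497 CPM on drug and 528, 577, 565 and 563 CPM off drug. On-drug replicate 3 was lowest, and the log2 fold change was 0.19 ± 0.06 with an adjusted p of 0.0487. This small difference missed the threshold in 13 of 25 other settings, among them those without on-drug replicates 1 (0.0581), 2 (0.0723), 3 (0.14) or 4 (0.0794) or off-drug replicates 2 (0.119), 3 (0.1) or 4 (0.0817). In the potassium channel list 6 of 20 genes rose and 3 fell (median 0.149). The voltage-gated channel Kcnq5 rose by 0.73 ± 0.11, the calcium-activated channel Kcnma1 by 0.31 ± 0.06 and the inward rectifier Kcnj12 by 1.51 ± 0.29, the last from 0.389 ± 0.118 to 1.09 ± 0.117 CPM. The count of 3 lower was 1 without off-drug replicates 3 and 4 and 1 without replicates 1 and 2.

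Of 29 genes of calcium entry, release and reuptake 6 fell and 2 rose, with a median of -0.022. The T-type calcium channel Cacna1g had 11.9, 14.6, 14.4 and 14.1 CPM on drug and 7.21, 7.01, 6.29 and 7.26 CPM off drug, below all other libraries of the series (-0.98 ± 0.09, adjusted p = 1.28e-06; controls 11.2 to 12.8 CPM). Trpv4, a mechanosensitive cation channel, had 8.12, 6.43, 8.25 and 8.3 and 4.08, 3.41, 3.93 and 4.03 CPM (-1.01 ± 0.12, adjusted p = 2.37e-05), and controls at 4.62 ± 0.65 CPM were near the off-drug level. Pln, which restrains the calcium pump of the sarcoplasmic reticulum, rose from 2.58 ± 0.632 to 4.29 ± 0.363 CPM. Its call ended without off-drug replicates 3 and 4 (adjusted p = 0.0571).

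Genes of vasoactive signalling moved both ways, 7 of 37 higher and 5 lower (3 without off-drug replicates 1 and 2), with a median of 0.006. The endothelin pair diverged. Edn1, the vasoconstrictor peptide, had 6.69, 8.13, 6.73 and 8.65 CPM on drug and 16.6, 14.1, 14.9 and 13.9 CPM off drug (0.98 ± 0.12, adjusted p = 2.86e-05). Ece1, the enzyme that activates it, had 128, 133, 146 and 138 and 87, 71.5, 82.8 and 79.1 CPM (-0.77 ± 0.07, adjusted p = 8.94e-07). Off-drug libraries were thus above all on-drug libraries for the peptide and below all of them for the enzyme. Gucy1a3, a subunit of the nitric oxide receptor guanylate cyclase, rose from 191 ± 3.47 to 269.8 ± 8.09 CPM (adjusted p = 0.000152), near the control 252 ± 32.9 CPM. The mineralocorticoid receptor Nr3c2 had 24.5, 17, 16.2 and 16.1 CPM on drug and 50.2, 51.2, 47.7 and 49.8 CPM off drug. The off-drug libraries were above all others, on-drug replicate 1 was the highest of its group, and the log2 fold change was 1.43 ± 0.23 (adjusted p = 0.00249). The angiotensin receptor Agtr1a was low everywhere and fell from 1.4 ± 0.245 to 0.599 ± 0.0983 CPM (adjusted p = 0.00132).

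Growth signalling lists had calls in both directions. In TGF-beta and BMP signalling 9 of 30 genes fell and 6 rose (median -0.16). The activin antagonist Fstl3 and the BMP target Id1 fell by 0.56 (SE 0.09) and 0.59 (SE 0.10). The co-receptor Tgfbr3 rose by 0.36 ± 0.07 and the activin subunit Inhba by 0.55 ± 0.11. In the Notch list 5 of 15 fell and 2 rose (median -0.083). The receptor Notch1 had 52.3, 46.3, 55.3 and 48.4 CPM on drug and 32.4, 30, 29.5 and 35.3 CPM off drug (-0.67 ± 0.08, adjusted p = 2.52e-05). The receptor Notch2, the highest expressed member of the list, rose instead, from 188 ± 6.87 to 230 ± 6.14 CPM (0.29 ± 0.06, adjusted p = 0.00455). Nrarp, a feedback target of Notch, fell by 0.91 (SE 0.12), whereas Hey2, another target, rose from 50.2 ± 6.25 to 67.5 ± 2.79 CPM. Of 31 growth factor genes 6 fell, among them Igf2r (-0.45 ± 0.05), Pdgfd (-0.39 ± 0.07) and Igf1 (-0.48 ± 0.09), and 5 rose, among them Fgf1 (0.41 ± 0.07). Single libraries moved these counts: without on-drug replicate 2 there were 5 lower TGF-beta genes and 3 lower growth factor genes, and the latter also numbered 3 without off-drug replicate 1. DESeq2 called 11 growth factor genes lower. Without off-drug replicates 3 and 4 there were 4 lower TGF-beta genes, 3 lower Notch genes and 1 higher growth factor gene, and without replicates 1 and 2 there were 5 lower TGF-beta genes and 2 lower Notch genes.

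Clock genes differed widely, in both directions. In the circadian clock BMAL1 (from Arntl) and CLOCK drive genes with E-boxes, PER and CRY proteins repress them, REV-ERB alpha (Nr1d1) represses Arntl through ROR elements, and DBP, HLF and TEF act on D-boxes. Across a day Arntl peaks opposite to Per and Dbp. Arntl (chromosome 7, 113207465 to 113314126, plus strand) had 9.63, 13.1, 9.12 and 5.2 CPM on drug and 1.02, 1.42, 1.11 and 0.791 CPM off drug, and 19.1, 13.9, 14.9 and 20.8 CPM in controls. All off-drug libraries were below all others, and no named gene with an average log2 CPM of 1 or more fell further (-3.09 ± 0.29, adjusted p = 5.02e-05). Its partner Clock had 124, 126, 112 and 97 CPM on drug and 61, 71.4, 64 and 72.5 CPM off drug (-0.77 ± 0.08, adjusted p = 3.87e-06), and Nr1d1 had 67.6, 86.9, 82.7 and 82.1 and 42.1, 34.7, 40.1 and 40.6 CPM (-1.02 ± 0.09, adjusted p = 1.56e-06). For both, no off-drug library reached the on-drug or control range.

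The repressor Cry1 (chromosome 10, 85131700 to 85185064, minus strand) had 3.51, 3.51, 5.52 and 5.7 CPM on drug and 21.4, 23.8, 21.5 and 23.4 CPM off drug, and no named gene of that level rose further (2.31 ± 0.14, adjusted p = 3.42e-08). Controls, at 4.68 to 5.62 CPM, overlapped the on-drug values. Hlf had 9.12, 11.2, 13.5 and 16.4 CPM on drug and 33.6, 40.9, 38.5 and 39.9 CPM off drug (1.61 ± 0.15, adjusted p = 1.47e-05), and Tef 193, 214, 225 and 309.8 and 406, 393, 417 and 416 CPM (0.79 ± 0.14, adjusted p = 0.00219). In these output genes on-drug replicate 4 was the highest of its group and the off-drug libraries were above all others. Dbp had 70, 92.8, 118 and 153 CPM on drug and 194, 161, 196 and 203 CPM off drug. Its groups did not overlap, but the difference of 0.80 ± 0.24 missed the threshold (adjusted p = 0.0654). It passed in 7 of 25 other settings, among them DESeq2 (0.00883), without on-drug replicate 4 (0.0198) and without control replicate 1 (0.0442). Named after their values were seen, Per2 rose from 49.8 ± 11.4 to 117 ± 10.6 CPM and Per3 from 41.4 ± 9.48 to 93.4 ± 2.51 CPM, while Per1 had 45.2 ± 7.93 and 40.4 ± 1.42 CPM with overlap (adjusted p = 0.661). Of 23 clock genes 9 rose and 6 fell, with a median of 0.397. The labels do not give the hour at which tissue was taken, and the part of that hour in these differences was not tested.

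The 3 promoters below show clock motifs in members with large differences, in capitals: an E-box (CACGTG) in Cry1, a pair of D-boxes (TTATGCAA or TTATGTAA) in Per3 and a ROR element in Arntl.
Cry1, chr10:85185005-85185304, minus strand: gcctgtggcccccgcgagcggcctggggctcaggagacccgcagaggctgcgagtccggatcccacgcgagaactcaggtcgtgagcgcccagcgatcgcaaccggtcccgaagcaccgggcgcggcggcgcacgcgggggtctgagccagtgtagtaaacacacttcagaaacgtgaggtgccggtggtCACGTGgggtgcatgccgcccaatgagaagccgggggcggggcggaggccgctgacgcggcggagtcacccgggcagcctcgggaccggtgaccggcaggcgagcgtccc
Per3, chr4:151044616-151044915, minus strand: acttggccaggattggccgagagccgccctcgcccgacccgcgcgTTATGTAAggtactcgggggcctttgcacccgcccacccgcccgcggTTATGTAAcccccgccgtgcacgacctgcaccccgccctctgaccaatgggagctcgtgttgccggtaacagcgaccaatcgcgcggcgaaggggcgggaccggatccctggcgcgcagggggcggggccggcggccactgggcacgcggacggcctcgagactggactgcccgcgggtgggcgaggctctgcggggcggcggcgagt
Arntl, chr7:113207261-113207560, plus strand: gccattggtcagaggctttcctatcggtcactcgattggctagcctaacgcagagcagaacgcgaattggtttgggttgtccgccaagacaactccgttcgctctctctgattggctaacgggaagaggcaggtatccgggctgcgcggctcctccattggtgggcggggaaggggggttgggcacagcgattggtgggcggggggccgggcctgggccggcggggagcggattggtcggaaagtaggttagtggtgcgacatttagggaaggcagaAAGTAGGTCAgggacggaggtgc
The Cry1 E-box starts 60 bases before the gene start, the Per3 D-boxes 205 and 158 bases before it, and the Arntl element 28 bases into the transcript. Of 18 clock genes with a RefSeq promoter, 5 held an E-box (10.6% of 13230 tested genes did), 2 a D-box (1.59%) and 1 a ROR element (0.642%). The E-box holders were Per1, Cry1, Tef, Bhlhe41 and Ciart, of which 3 rose and 2 were not called. Of the D-box holders Per3 rose and Per1 was not called, and the ROR element holder Arntl fell.

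Immediate-early genes, transcribed within minutes of a stimulus, were lower off drug in 13 of 31 cases and higher in 1 (median -0.393). Fos had 114, 197, 287 and 98.8 CPM on drug and 35.7, 33.8, 53.8 and 31.8 CPM off drug (-2.16 ± 0.40, adjusted p = 0.00683), and its AP-1 partner Junb had 168, 204, 301 and 142 and 49.1, 34.7, 53.2 and 42.5 CPM (-2.18 ± 0.25, adjusted p = 0.000401). The zinc finger factor Egr1 had 62.2, 75.5, 98.4 and 46.4 CPM on drug and 16.2, 16.2, 19.8 and 13.8 CPM off drug (-2.10 ± 0.22, adjusted p = 0.000195). For each the off-drug libraries lay below all on-drug and control libraries, and on-drug replicate 3 was the highest of its group. Ier2 fell by 1.93 (SE 0.28), Maff by 0.95 (SE 0.10), Ier3 by 0.81 (SE 0.09) and the MAP kinase phosphatase Dusp1 by 0.61 (SE 0.11). The riser, Klf6, named after its values were seen, had 261 ± 13.8 and 312 ± 16.1 CPM (adjusted p = 0.0168). Its call ended without off-drug replicate 4 (0.0527) or on-drug replicate 2 (0.0659). That of Fos ended without off-drug replicates 3 and 4 (0.0587) or 1 and 2 (0.102).

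**Figure D4:**
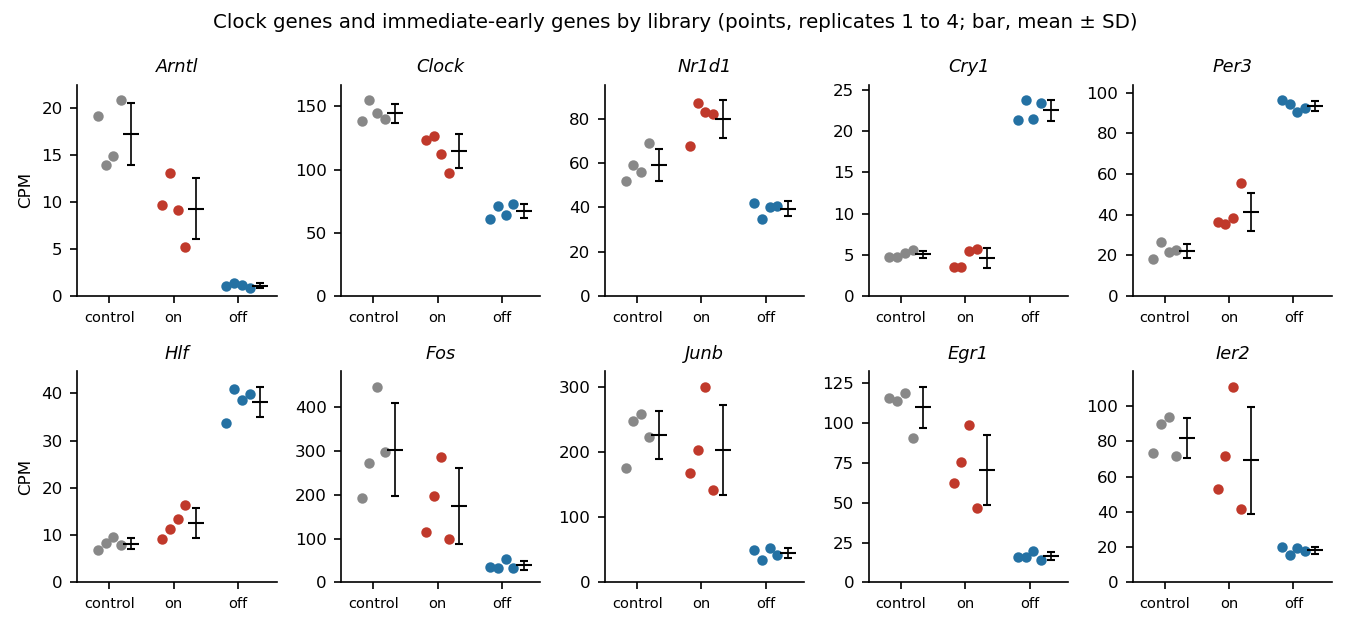
CPM (y axis, from 0) of 6 clock genes (Arntl to Hlf) and 4 immediate-early genes (Fos to Ier2) in each of 12 libraries, with points in the order of replicates 1 to 4 and bars for the mean ± SD of each group. Off-drug points lie below all others for Arntl, Clock, Nr1d1 and the immediate-early genes, and above all others for Cry1, Per3 and Hlf.

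Of 22 blood endothelial genes 11 fell and 1 rose (median -0.385), and their summed level was 1231 to 1439 CPM on drug, 897.4 to 1164 CPM off drug and 1008 to 1127 CPM in controls. Von Willebrand factor (Vwf) had 231, 236, 287 and 266 CPM on drug and 195, 160.3, 172 and 179.9 CPM off drug (-0.53 ± 0.07, adjusted p = 7.62e-05), with controls at 170.1 ± 4.94 CPM. The junction protein VE-cadherin (Cdh5) fell by 0.53 (SE 0.10), the angiopoietin receptor Tek by 0.40 (SE 0.08) and the transcription factor Sox18 by 0.96 (SE 0.17). Pecam1, the highest expressed member, had 440 ± 37 CPM on drug and 374 ± 43.5 CPM off drug, which overlapped (adjusted p = 0.0838). Of 8 lymphatic markers 4 fell and 0 rose (median -0.901), 7 were lower and 0 higher at an unadjusted p below 0.05, and DESeq2 and limma-voom called 0 higher. Lyve1, a hyaluronan receptor that macrophages near vessels also carry, had 74.6, 74, 80.6 and 83 CPM on drug and 28.9, 40, 34.6 and 29 CPM off drug (-1.24 ± 0.14, adjusted p = 7.55e-05). The lymphatic growth factor receptor Flt4 had 7.75, 7.17, 11.8 and 10 and 4.19, 4.52, 4.8 and 5.23 CPM (-0.96 ± 0.17, adjusted p = 0.00119), and Pdpn fell by 0.51 (SE 0.08). Off-drug means of Vwf and Flt4 were near those of controls. The fourth call, Mmrn1 (-1.03 ± 0.27, adjusted p = 0.0304), had overlapping groups. It ended without off-drug replicates 1 (0.0542), 2 (0.0815) or 3 (0.0758) or on-drug replicates 1 (0.068), 3 (0.0825) or 4 (0.0757).

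Adventitial fibroblast markers fell in 9 of 18 cases and rose in 1 (median -0.293), although their summed level overlapped (6596 to 6886 CPM on drug, 6382 to 6917 CPM off drug). The progenitor antigens Ly6a and Cd34 fell by 0.66 (SE 0.08) and 0.49 (SE 0.07). The riser, Gsn, was the highest expressed member, with 2206.5 ± 95.5 CPM on drug and 2611.8 ± 56.6 CPM off drug (0.24 ± 0.06, adjusted p = 0.0106). Dcn, given above, is also a member and was not called. Several members of that list, such as Mfap5, are themselves matrix genes. Macrophage and complement C1q genes were lower in 12 of 21 cases and higher in 0 (median -0.311). At an unadjusted p below 0.05, 15 were lower and 1 higher, and DESeq2 and limma-voom called 0 higher. C1qa had 97.6, 93.1, 105 and 97 CPM on drug and 75.5, 67.6, 76.7 and 71.3 CPM off drug (-0.43 ± 0.07, adjusted p = 0.000221), and C1qb and the endotoxin co-receptor Cd14 fell by 0.48 (SE 0.07) and 0.51 (SE 0.11). The off-drug C1qa libraries were below all controls (86.6 to 106 CPM). Lyz2, the highest expressed macrophage gene of the list, had 382 ± 60.9 CPM on drug and 292 ± 28.9 CPM off drug, which overlapped (adjusted p = 0.0881). The summed level of the list was 1085 to 1296 CPM on drug and 878.8 to 984.1 CPM off drug. Without off-drug replicates 3 and 4 there were 5 lower fibroblast genes and 5 lower macrophage genes, and 5 macrophage genes without replicates 1 and 2.

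Chemokines and cytokines fell in 6 of 34 cases and rose in 3 (median -0.224). Ccl9, a chemokine of myeloid cells, had 69.5, 56.4, 70.7 and 49.3 CPM on drug and 15.4, 19.4, 18.8 and 13.9 CPM off drug (-1.86 ± 0.23, adjusted p = 0.000534). The related Ccl6 had 58.3 ± 13 and 17.4 ± 5 CPM and the receptor Ccr1 5.62 ± 1.53 and 1.52 ± 0.565 CPM. The groups did not overlap for any of the 3, although the Ccl6 call ended without off-drug replicates 3 and 4 (adjusted p = 0.0517) and that of Ccr1 without replicates 1 and 2 (0.125). The adhesion molecules Vcam1 and Icam1 moved oppositely, by 0.36 ± 0.06 (adjusted p = 0.000559) and -0.41 ± 0.09 (adjusted p = 0.00381). The list had 3 lower and 1 higher without off-drug replicates 3 and 4. Lists of T cells, B cells, neutrophils and platelets had 0 calls in either direction. Of their 16, 13, 10 and 10 tested genes, 1, 1, 0 and 0 had an unadjusted p below 0.05, DESeq2 called 1, 0, 0 and 0, and limma-voom called 0 in each.

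White adipocyte genes had 0 calls of 20 in edgeR's test, where the off-drug pairs differed as given above. At an unadjusted p below 0.05, 0 were higher and 2 lower, and DESeq2 called 1 lower. In the brown adipocyte list 2 of 15 genes rose and 1 fell, with a median of 0.335. Its log2 fold changes were positive for 13 genes and negative for 2. The risers were Fabp3 (0.61 ± 0.14, adjusted p = 0.00795) and Acot11 (0.32 ± 0.10, adjusted p = 0.0399). The one that fell was Dio2, the enzyme that activates thyroid hormone. It had 103, 123, 107 and 121 CPM on drug and 40.2, 40.8, 36.5 and 37.6 CPM off drug (-1.55 ± 0.10, adjusted p = 1.53e-07). Controls had 84.9 to 120.1 CPM, above all off-drug values.

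Several genes of cell division fell. Of 38 genes of mitosis and DNA replication 17 were lower and 2 higher (median log2 fold change -0.56). Prc1, which organises the spindle midzone, had 5.55, 5.84, 8.3 and 5.62 CPM on drug and 2.34, 3.25, 2.88 and 2.14 CPM off drug (-1.25 ± 0.17, adjusted p = 6.13e-05). The mitotic cyclins Ccnb1 and Ccnb2 had 2.92 ± 0.42 and 2.23 ± 0.429 CPM on drug and 1.06 ± 0.384 and 0.684 ± 0.308 CPM off drug. The kinetochore protein Cenpf fell by 1.45 (SE 0.21). These levels were low in all libraries, and control means lay between the groups (Prc1 3.91 ± 0.624 CPM). The risers, named after their values were seen, act in DNA replication: Mcm4, part of the replicative helicase, had 0.40 ± 0.09 (adjusted p = 0.00436, 0.0625 without off-drug replicates 1 and 2). Rrm1, a ribonucleotide reductase subunit, had 0.26 ± 0.07 (adjusted p = 0.028), which did not pass without off-drug replicates 1 (0.0672), 3 (0.0829) or 4 (0.0538) or on-drug replicate 4 (0.104). The count of 17 was 8 without off-drug replicates 3 and 4.

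Some antioxidant and sterol genes rose. Of 24 metallothionein and antioxidant genes 8 were higher and 1 lower (median 0.126). The glutathione transferase Gsta4 had 2.94, 2.06, 1.8 and 2.31 CPM on drug and 5.34, 4.54, 5.56 and 4.97 CPM off drug (1.15 ± 0.15, adjusted p = 4.82e-05). The quinone reductase Nqo1 had 21.5, 21.4, 22.2 and 23.9 and 32.6, 30.7, 34.6 and 30.2 CPM (0.53 ± 0.07, adjusted p = 9.53e-05), and the peroxiredoxin Prdx6 rose by 0.31 ± 0.06. Off-drug libraries were above all control libraries for each of the 3. The count of 8 was 5 without on-drug replicate 2 or without off-drug replicates 1 and 2, and 4 without off-drug replicates 3 and 4. In cholesterol synthesis and uptake 6 of 24 genes rose and 1 fell (median 0.297). Msmo1, an enzyme late in the pathway, had 26.6, 18.1, 17.5 and 18.2 CPM on drug and 29.2, 29.6, 30 and 35.3 CPM off drug (0.62 ± 0.13, adjusted p = 0.0046). Its groups did not overlap, and off-drug values overlapped the controls at 24.6 to 32.5 CPM. The sterol count was 3 without on-drug replicate 3, 2 without on-drug replicate 4, 3 without off-drug replicates 3 and 4, 10 without on-drug replicate 1, 10 in DESeq2 and 11 in limma-voom.

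Lists of energy and protein synthesis genes had no calls. Of 36 oxidative phosphorylation genes and 46 cytosolic ribosomal protein genes 0 were called in edgeR's test, with medians of 0.081 and 0.05. At an unadjusted p below 0.05 there were 3 and 1, all higher, and DESeq2 and limma-voom called 0 in both. Of 32 proteasome genes 1 fell and 0 rose in edgeR's test, 2 were higher at an unadjusted p below 0.05, and DESeq2 and limma-voom called 0 higher.

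Hormone and stress regulators gave smaller groups of calls. Of 19 glucocorticoid-responsive genes 7 fell and 2 rose, with a median of -0.612. The cell cycle inhibitor Cdkn1a had 20.3, 16.6, 18.5 and 12.4 CPM on drug and 11.9, 9.76, 7.43 and 8.23 CPM off drug (-0.86 ± 0.17, adjusted p = 0.00389, and 0.0534 without off-drug replicates 3 and 4), below all controls (17.8 to 24.4 CPM). The risers were the glucocorticoid receptor itself, Nr3c1, from 182 ± 7.55 to 223 ± 7.56 CPM, and Hsd11b1, which regenerates active glucocorticoid, from 23.1 ± 0.385 to 32.7 ± 1.64 CPM. The count of 7 was 4 without off-drug replicate 1, 2 or 4 and in a fit of the 8 libraries alone, 3 without off-drug replicates 3 and 4 and 2 without replicates 1 and 2. Of 29 regulators of the unfolded protein and integrated stress responses 7 fell and 2 rose (median -0.11). Psat1, a serine synthesis enzyme, fell by 0.58 (SE 0.13), and Ddit3, the stress factor CHOP, rose from 15.7 ± 2.19 to 21.7 ± 0.901 CPM (adjusted p = 0.00708). The other riser, Herpud1, was the highest expressed member, with 140 ± 8.75 CPM on drug and 171 ± 6.11 CPM off drug (0.29 ± 0.08, adjusted p = 0.0285). The Psat1 call ended without off-drug replicates 1 and 2 (0.0658), and that of Ddit3 without either pair (0.066 and 0.0504). The count of 7 was 4 without off-drug replicate 1, 3 or 4 or on-drug replicate 2, and it was 3 when on-drug replicate 3 was left out. It was 3 without off-drug replicates 3 and 4 and 1 without replicates 1 and 2. In glycolysis and hypoxia 5 of 28 genes rose and 4 fell (median 0.035). The count of 5 was 2 without off-drug replicate 3 or on-drug replicate 2, and 3 without off-drug replicate 4, on-drug replicate 3 or on-drug replicate 4. It was 1 without off-drug replicates 3 and 4 and 3 without replicates 1 and 2.

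Of the lists for tissue around the aorta, cartilage had 4 of 16 genes higher and 0 lower, and 5 higher and 0 lower at an unadjusted p below 0.05, with 0 lower in DESeq2 and limma-voom. Its log2 fold changes were split, 8 positive and 8 negative (median 0.02), and its calls include Acan and Hapln1, given above. The highest expressed member, Cytl1, had 231 ± 14.8 CPM on drug and 229 ± 36.6 CPM off drug (adjusted p = 0.975). The list's summed level overlapped between the groups (515.7 to 554.4 CPM on drug, 526.7 to 611.6 CPM off drug). Its defining factor Sox9 was low in both, at 0.707, 0.607, 0.748 and 0.475 CPM on drug and 1.45, 0.975, 1.47 and 1.32 CPM off drug (1.04 ± 0.24, adjusted p = 0.00758). Epyc, a small cartilage proteoglycan, had 0.606, 0.372, 0.0935 and 0.251 and 1.11, 1.11, 0.974 and 0.905 CPM (1.54 ± 0.36, adjusted p = 0.00786). The Sox9 call ended without off-drug replicates 3 and 4 (0.0956) and that of Epyc without replicates 1 and 2 (0.0745). Skeletal muscle had 3 of 24 lower and 1 higher, with sums of 345.9 to 403.4 CPM on drug and 293.8 to 350.1 CPM off drug. The lower sums went with its highest expressed member Casq1, which fell from 160 ± 16 to 106 ± 14.4 CPM. Most of the list went the other way, with 17 positive and 7 negative log2 fold changes and a median of 0.253. The part of cartilage and muscle in the results was not tested beyond a fit with the skeletal muscle score as covariate, which called 1169 genes higher and 1505 lower. Among blood cells, mast cells had 3 of 11 lower (0 without off-drug replicate 2 or on-drug replicate 3, and 1 without off-drug replicate 1, on-drug replicate 1 or on-drug replicate 4). Mast cell genes called lower numbered 5 in DESeq2, 6 with the replicate block, 5 without off-drug replicates 3 and 4 and 0 without replicates 1 and 2. The interferon list had 3 of 35 lower (1 without off-drug replicate 2, off-drug replicate 4, on-drug replicate 1 or either off-drug pair, and 5 in DESeq2). The 10 erythroid genes all had lower fitted values off drug, with a median of -0.863, and 1 of them was called lower in edgeR's test. At an unadjusted p below 0.05, 5 were lower and 0 higher, and DESeq2 called 4 lower and limma-voom 1. Their summed level was 3909 to 6039 CPM on drug, 2064 to 4836 CPM off drug and 4957 to 20630 CPM in controls, and the part of blood content in the other results was not tested.

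**Figure D5:**
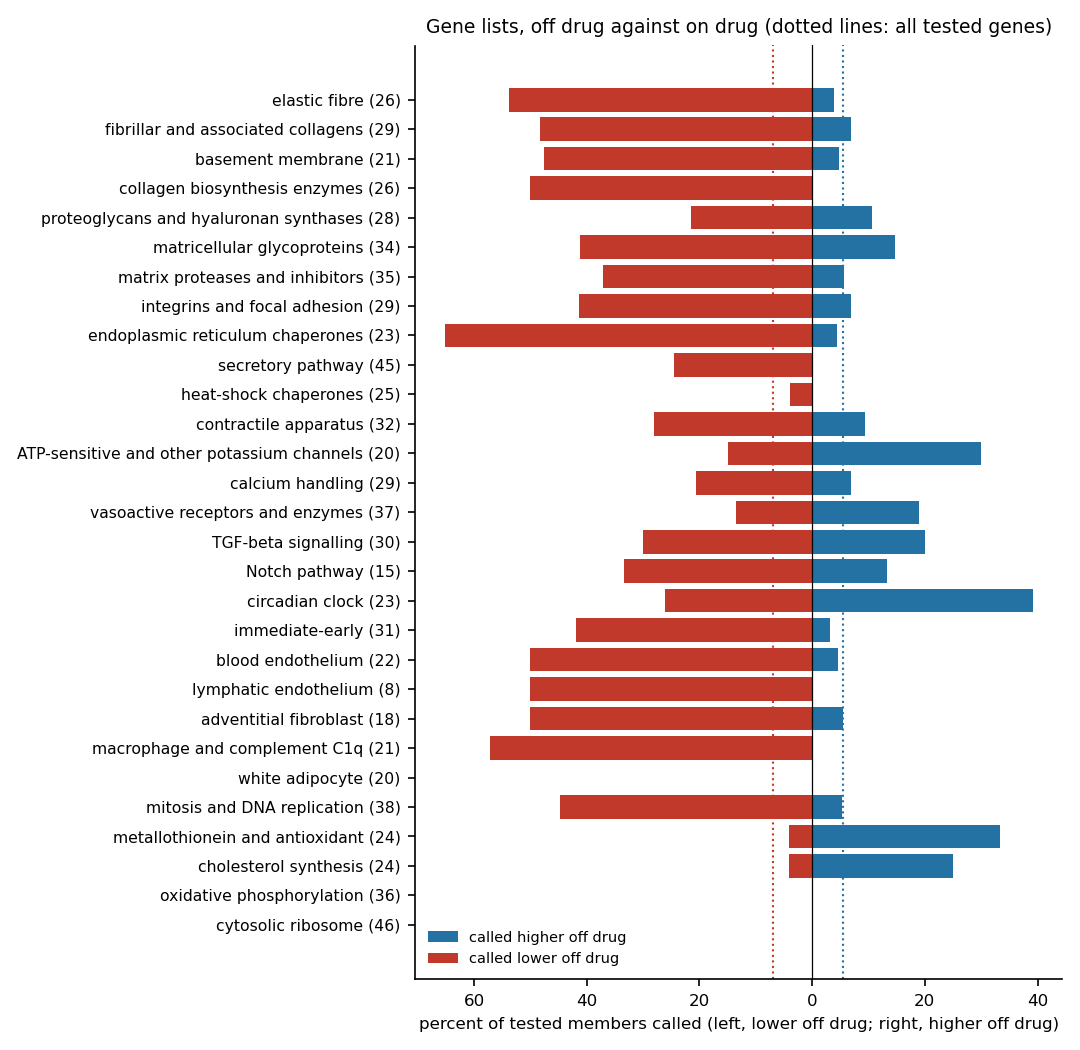
Percent of tested members called lower (left, red) or higher (right, blue) off drug for 29 gene lists, with the number tested in parentheses and dotted lines at the share of all tested genes (6.92% lower, 5.44% higher). The matrix, endoplasmic reticulum chaperone, endothelial and macrophage lists extend mainly left, and the antioxidant and sterol lists mainly right. The clock list (9 higher, 6 lower) and the potassium channel list (6 higher, 3 lower) extend both ways.

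Several of the largest differences were in genes of no list. Among those that fell, Esm1, a proteoglycan secreted by endothelium, had 11.5, 13.3, 15.4 and 11.3 CPM on drug and 2.29, 2.56, 2.15 and 2.54 CPM off drug (-2.42 ± 0.19, adjusted p = 1.57e-06). The mitochondrial carrier Slc25a34 had 48.6, 51.9, 34.7 and 28.7 and 9.4, 5.74, 8.79 and 8.69 CPM (-2.33 ± 0.23, adjusted p = 0.000119). In both, off-drug libraries were below every on-drug and control library. Wdr95, a WD repeat gene, fell by 1.85 (SE 0.13), from 17.2 ± 3.95 to 4.78 ± 0.179 CPM.

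Among those that rose, Cited2, a transcriptional co-regulator that restrains the hypoxia response, had 8.95, 7.38, 7.81 and 13.7 CPM on drug and 38.8, 37, 42 and 43.8 CPM off drug (2.09 ± 0.22, adjusted p = 0.000109). Mthfd1l, a mitochondrial folate enzyme that makes formate, had 6.63, 5.9, 8.35 and 10 and 23.8, 24.3, 24.4 and 26.2 CPM (1.68 ± 0.13, adjusted p = 1.66e-07), and the methyltransferase Inmt 100.5, 123, 149 and 148 and 332, 354, 386 and 330.1 CPM (1.43 ± 0.11, adjusted p = 2.15e-06). Off-drug levels of these 3 genes were above all on-drug and control libraries. Enpp2 encodes autotaxin, which makes lysophosphatidic acid. It rose from 4.26 ± 1.14 to 12.4 ± 2.16 CPM, against 12.1 ± 1.73 CPM in controls. The Wnt receptor ligand norrin (Ndp) rose by 1.62 ± 0.20 and the sialidase Neu2 by 1.56 ± 0.23. Map2k6, a kinase that activates p38, rose by 1.41 ± 0.29, a call that ended without off-drug replicates 1 and 2 (adjusted p = 0.0574). Dlx6os1 (1.62 ± 0.20) overlaps a gene on the other strand and Rbm12b2 (1.68 ± 0.31) has a close paralog, so reads could not be assigned to either with certainty. The Rbm12b2 call ended without off-drug replicates 3 and 4 (adjusted p = 0.0604).

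The last 5 genes were chosen after their values were seen. Msx2, a homeobox factor, had 0.0275, 0.0392, 0 and 0.0132 CPM on drug, 0.889, 0.65, 0.884 and 1.01 CPM off drug and 1.21, 0.946, 1.03 and 1.16 CPM in controls. On drug it was nearly silent while off-drug and control ranges overlapped (5.22 ± 0.41, adjusted p = 1.75e-07). Tfap2b, an AP-2 factor, had 0.101, 0.0979, 0.0701 and 0.0791 CPM on drug, 1.32, 0.7, 0.897 and 0.981 CPM off drug and 0.687 to 1.35 CPM in controls (3.43 ± 0.34, adjusted p = 2.45e-06). Asb10, an ankyrin repeat gene, had 0.349, 0.353, 0.187 and 0.567 CPM on drug and 2.03, 1.72, 2.96 and 2.45 CPM off drug, but only 0.458 to 0.699 CPM in controls (2.61 ± 0.28, adjusted p = 6.56e-06). Mthfd2, like Mthfd1l an enzyme of mitochondrial folate metabolism, fell where Mthfd1l rose. It had 22.2, 18, 15.4 and 19 CPM on drug, 6.86, 5.77, 7.22 and 5.82 CPM off drug and 19.1 to 28.7 CPM in controls (-1.54 ± 0.14, adjusted p = 2.98e-06). Thrombospondin-1 (Thbs1), which activates latent TGF-beta, had 211, 251, 181 and 178 CPM on drug and 74.6, 66.6, 95.3 and 79.7 CPM off drug (-1.38 ± 0.16, adjusted p = 0.000268), with controls at 86.1 to 132 CPM.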

How the data were processed

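Per the file headers, the authors counted read pairs per gene with featureCounts 1.4.6-p3, with multi-mapping and overlapping assignments kept, duplicates ignored and no strand option, on the GENCODE M13 annotation in a STAR 2.5.3a index folder. The build was GRCm38 per the submitters' processing notes. These deposited counts were tested. The authors' table of log2 values (log2 of count over size factor plus 1, from its values) gave only symbols and coordinates. Without strand, a gene and its antisense partner share reads.

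Genes were filtered with edgeR's filterByExpr (minimum count 10, total 15), scaled by TMM and fitted with edgeR 4.0.16's robust quasi-likelihood test on 3 groups and 12 libraries, whose controls share in the estimate of spread. A gene was called at a Benjamini-Hochberg adjusted p below 0.05 over all tested genes. DESeq2 1.42.0, limma 3.58.1 (voom), other filters, scalings and covariates and left-out libraries were alternatives. The procedure was tested on simulated data.

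The comparison and the gene lists were chosen with earlier results of these data known, and the cardiac muscle list was added after the files were seen. Named genes were the fixed targets of the study's question, the 12 largest non-overlapping rises and 12 largest falls whose log2 CPM averaged 1 or more, up to 4 called members with the smallest adjusted p of each list with at least 3 calls, and the highest expressed member of each list. Any other gene is said to be named after its values were seen. Promoters are from RefSeq (GRCm38.p6). CPM depend on depth, which ran from 41524501 to 109423243 counts in the 8 libraries. Some results are not reported here.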

Additional observations from a re-analysis of the deposited data

Results flagged for a closer look

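In 20 of 308 groups of 4 libraries (6.49%, where chance gives about 1 in 20), a single library stood apart from the other 3 by Dixon's criterion. The groups were those of 154 genes named above, without Acot11, Fabp3, Gsn, Herpud1, Lyz2, Notch2 and Pecam1. All values are CPM, and the range of the other 3 libraries of the group follows each.

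On drug, replicate 1 was low for Mgp (1567, others 1730 to 1742) and Hey2 (40.9, others 52.2 to 54.2) and high for Nr3c2 (24.5, others 16.1 to 17) and Msmo1 (26.6, others 17.5 to 18.2). Replicate 2 was high for Lox (337, others 265 to 275) and Wdr95 (23.1, others 14.7 to 15.6) and low for Trpv4 (6.43, others 8.12 to 8.3). Replicate 3 was high for Kdelr3 (71.9, others 68.2 to 68.6), Prc1 (8.3, others 5.55 to 5.84) and Rbm12b2 (14.8, others 6.33 to 7.07) and low for Abcc9 (456, others 496 to 502). Replicate 4 was high for Per3 (55.5, others 35.3 to 38.6).

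Off drug, replicate 1 was high for Wdr95 (5.05, others 4.65 to 4.71) and replicate 2 for Kcnma1 (87.3, others 78.7 to 79.5). Replicate 3 was low for P4ha2 (31.9, others 36.3 to 36.6) and high for Mgp (2897, others 2596 to 2625) and Ccnb2 (1.14, others 0.49 to 0.6). Replicate 4 was low for Fgf1 (90.7, others 102 to 104) and Cd34 (219, others 238 to 239.8) and high for Msmo1 (35.3, others 29.2 to 30). Leaving out any of these libraries ended none of these genes' calls except that of Abcc9.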

How the results depend on the processing

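Across 25 alternatives the same 154 named genes kept their direction wherever they were tested (Tfap2b in 24, since the harder filter left it out). Of the 147 of them that were called, 124 were called in each setting in which they were tested. Single results for Acot11, Fabp3, Gsn, Herpud1, Lyz2, Notch2 and Pecam1 were not followed over the alternatives. Counts over all genes moved by more than 1.5 times only with fewer off-drug libraries or a harder filter on low genes. Without off-drug replicates 3 and 4 there were 656 higher, 894 lower and 113 at least 2-fold higher calls, and without replicates 1 and 2 there were 630 and 972; both removals were chosen after seeing the data and leave 2 libraries in the group. Requiring 1 CPM or more in 4 libraries, 104 genes were at least 2-fold higher, since fewer low genes were tested. Leaving out 1 library gave 965 to 1464 higher and 1273 to 1788 lower calls, and 143 to 185 and 236 to 305 at least 2-fold. The share of calls that were higher was 44%, and 39.3 to 48% over the settings. Replicate numbers are shared by the groups, and the labels state no pairing. Deviations from the group mean in same-numbered off-drug and on-drug libraries correlated by -0.0793, 0.163, 0.102 and 0.0515. Those in differently numbered libraries correlated by -0.166 to 0.117. Such weak values from few pairs cannot decide whether same-numbered libraries were paired. With the replicate block 1303 genes were higher and 1744 lower. Low genes such as Msx2 rest on few counts in on-drug libraries, which limits the precision of their fold changes.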
